A study of Homo sapiens with 6 samples.

Results

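Glycolysis and hypoxia response genes were taken as 38 named genes: 2 glucose transporters, 15 glycolytic enzymes, 3 PFKFB regulators, 4 genes of lactate handling, 2 HIF alpha subunits, 2 HIF prolyl hydroxylases and 10 hypoxia target genes. All 38 were found by Ensembl identifier among the 58051 genes counted. They were examined because GAPDH, often used as a reference gene, was lower in RBFOX1 cells, and the question was whether other genes of the pathway moved with it. The cells were A172, an established human glioblastoma cell line, made stable with the lentiviral vector pLX317 carrying RBFOX1 (3 libraries) or GFP as control (3 libraries). RBFOX1 is an RNA-binding protein that recognizes TGCATG in DNA letters. Virus was packaged in HEK293T cells, a human embryonic kidney line, and added with polybrene, so both groups carry an integrated vector. Cells grew in DMEM with 10% fetal bovine serum; glucose, oxygen and lactate were not measured here. The replicates are described as biological, and p-values measure only the spread between these libraries.

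Glycolysis splits glucose into pyruvate and yields ATP. Hexokinase traps glucose in the cell, phosphofructokinase commits it to the pathway, and GAPDH carries out the step that makes NADH. Lactate dehydrogenase turns pyruvate into lactate, which leaves through monocarboxylate transporters. When oxygen is low, the HIF alpha subunits HIF1A and EPAS1 escape the prolyl hydroxylases EGLN1 and EGLN3, accumulate as proteins, and bind a short motif near target genes that include many glycolytic enzymes. Glioblastoma is known for high glycolysis and for hypoxic zones. HIF activity is set mainly at the protein level, which RNA counts do not measure.

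Counts on genes ran from 7433414 to 23249221 per library. GFP replicate 1, the deepest library, stood apart from the other GFP libraries, with chi-square values of 8.90 and 9.07 per degree of freedom against them over all genes, where all other replicate pairs lay between 1.66 and 3.01. RBFOX1 had 4, 0 and 1 counts in the GFP libraries and 10276, 16467 and 21451 in the RBFOX1 libraries, with an adjusted p of 2.47e-23 from edgeR's quasi-likelihood test. Of the 8 glioma and neural markers, VIM, NES, CD44, OLIG2, SOX2 and SOX9 were detected in every library, whereas the astrocyte markers GFAP and S100B had at most 4 and 2 counts. VIM, CD44, SOX9 and OLIG2 were lower in RBFOX1 cells, with log2 fold changes of -0.65, -0.90, -1.14 and -0.50, and NES and SOX2 were higher, at 0.60 and 2.53 (adjusted p of 0.00399 or less by edgeR). Of the 6 immune and endothelial markers, 5 were tested and 4 were higher in RBFOX1 cells (PTPRC, PECAM1, CDH5 and VWF), beside 23.7% of all genes tested. CDH5 had 2, 4 and 2 raw counts in the GFP libraries, and VWF had 2, 2 and 1. AIF1 had 0 counts in all libraries. The list's summed share of gene counts was 0.000181 to 0.000254% in GFP and 0.00120 to 0.00123% in RBFOX1 libraries. The part of these marker genes in the results below was not tested. In bulk RNA, fewer cells expressing a gene and less RNA per cell cannot be told apart.

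Of the 37 members tested, 7 were higher (18.9%) and 13 lower (35.1%) in RBFOX1 cells, and 17 did not pass the threshold, an adjusted p under 0.05 from edgeR's quasi-likelihood test. Of all 20536 genes tested, 46.6% passed, 23.7% higher and 22.9% lower. Without GFP replicate 1, 9 members were higher and 15 lower, beside 4777 higher and 4530 lower of the 19534 genes then tested. HK2, PFKFB3, LDHA, HIF1A, EPAS1, EGLN3 and ADM rose, and SLC2A3, HK1, PFKM, PFKP, ALDOA, GAPDH, PGK1, SLC16A3, BNIP3, BNIP3L, NDRG1, P4HA1 and P4HA2 fell. In 7 members all RBFOX1 libraries lay above all GFP libraries and in 15 all lay below, together 22 of 37, beside 53.4% of all genes tested. The median log2 fold change of the members was -0.0025, beside 0.0051 for all genes tested, and 18 were positive and 19 negative. A log2 fold change of 1 or more in either direction was reached by 4 members (ADM, HK2, NDRG1 and EGLN3) and by 17.4% of all genes tested. CA9, a carbonic anhydrase widely used as a hypoxia marker, had 1 count in RBFOX1 replicate 1 and 0 in the other libraries, too few to test.

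**Figure D1:**
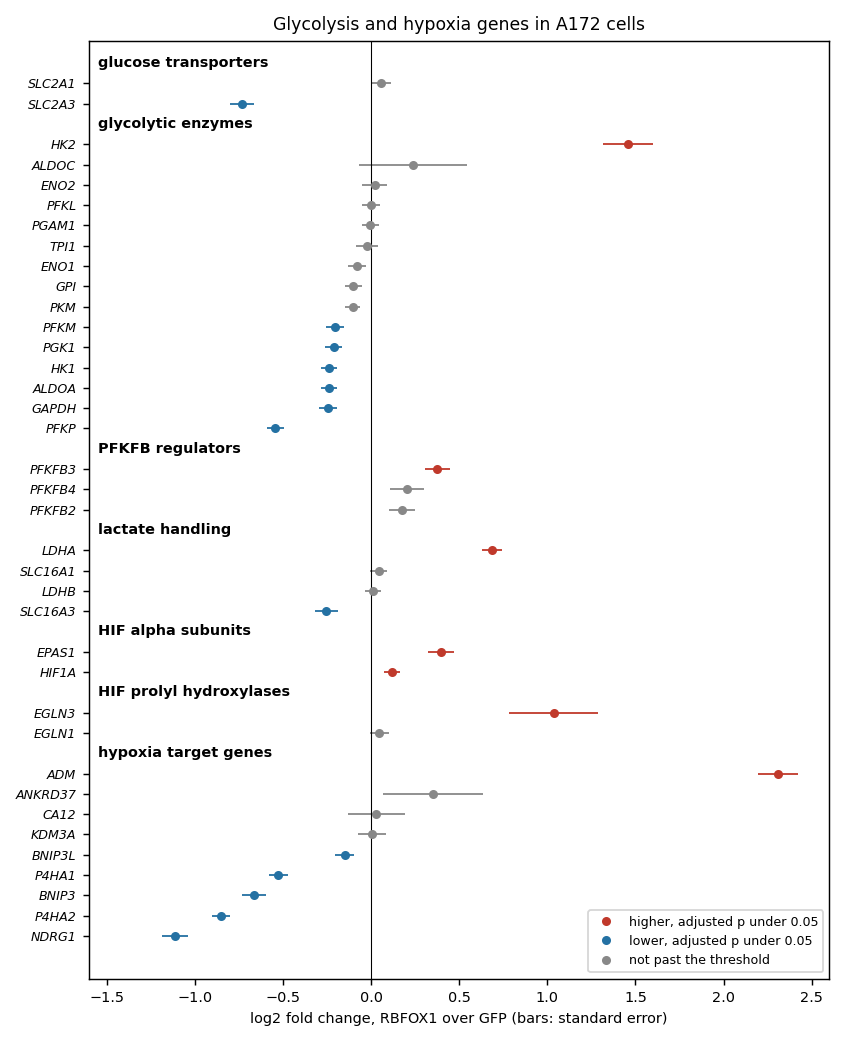
Log2 fold change of RBFOX1 over GFP (x axis) for the 37 members tested, grouped by role; points are estimates over 3 against 3 libraries and bars are standard errors. ADM at 2.31 and HK2 at 1.46 lie farthest to the right and NDRG1 at -1.11 farthest to the left, while most glycolytic enzymes lie just left of 0.

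To show the letters that the HIF proteins and RBFOX1 are known to recognize, members were searched for both motifs. The HIF core motif was taken as ACGTG or GCGTG on either strand, and matches can share bases. The letters CACGTG hold ACGTG on both strands and count as 2 matches. It was present in 41 of the 60 RefSeq promoter windows of members (68.3%), which run from 250 bases before to 50 bases after a start, beside 58.7% of the windows of genes tested and 48.4% of all 35116 windows. The windows belong to 33 of the 38 members, and HK1 and PFKM have 7 each. Of the hypoxia target genes, 8 of 9 windows held it, and of the glycolytic enzymes, 20 of 34. Counted by gene, with a match in any window, it was present in 6 of 7 members that rose, 9 of 10 that fell and 14 of 15 that did not pass, beside 67.7% of the genes tested. Windows from GRCh38.p14 are printed for LDHA, which rose, and for BNIP3 and GAPDH, which fell, with the motif letters in capitals. LDHA (chr11:18394313-18394612, plus strand) and BNIP3 (chr10:131981874-131982173, minus strand) hold 6 matches each. GAPDH (chr12:6535014-6535313, plus strand) holds 2, both in a single CACGTG. Matches thus stood in windows of genes that moved in either direction. The GAPDH window belongs to an internal start, since the gene as annotated begins at 6534512, and no window at that 5' end was searched.
LDHA promoter: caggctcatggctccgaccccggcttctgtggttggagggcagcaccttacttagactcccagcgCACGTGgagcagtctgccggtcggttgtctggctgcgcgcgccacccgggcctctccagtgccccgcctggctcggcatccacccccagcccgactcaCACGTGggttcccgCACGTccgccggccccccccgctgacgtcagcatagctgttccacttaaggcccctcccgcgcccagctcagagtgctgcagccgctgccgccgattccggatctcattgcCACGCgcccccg
BNIP3 promoter: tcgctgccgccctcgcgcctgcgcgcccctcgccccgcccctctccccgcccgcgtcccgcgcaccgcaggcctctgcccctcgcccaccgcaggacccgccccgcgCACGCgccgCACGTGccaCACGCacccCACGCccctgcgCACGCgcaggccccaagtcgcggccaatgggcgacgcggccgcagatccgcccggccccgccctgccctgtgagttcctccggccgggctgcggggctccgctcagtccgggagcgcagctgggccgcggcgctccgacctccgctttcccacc
GAPDH promoter: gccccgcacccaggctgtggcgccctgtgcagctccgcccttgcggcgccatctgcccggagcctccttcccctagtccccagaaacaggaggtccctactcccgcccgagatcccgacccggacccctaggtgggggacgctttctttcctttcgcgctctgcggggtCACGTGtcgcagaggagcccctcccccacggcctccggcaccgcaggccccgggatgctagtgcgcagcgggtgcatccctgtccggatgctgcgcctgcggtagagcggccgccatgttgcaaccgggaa

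The RBFOX1 motif TGCATG was searched on the gene's own strand in the 3' UTR of the canonical transcript. It was found in 13 of the 37 members tested (35.1%), beside 36.5% of the 14009 protein-coding genes tested. Among members that rose, 4 of 7 held it, among those that fell, 4 of 13, and among the rest, 5 of 17. The 3' UTRs had medians of 1664, 1005 and 897 bases in these groups, so the groups also differ in the length searched. GAPDH has none in its 201 bases. PFKFB2 has 4 sites, PFKFB4 has 3, and PFKFB3 and GPI have 2 each. Sites are printed with 9 bases on each side, for the 4 members that rose (ADM, EPAS1, LDHA, PFKFB3) and for 3 that fell (HK1, PFKP, SLC16A3), with TGCATG in capitals. BNIP3L, which also fell, has 1 site that is not printed. A match is a description of the letters and not evidence of binding.
ADM chr11:10307265-10307288, plus strand: gtgtttgtgTGCATGaaagagaaa
EPAS1 chr2:46384996-46385019, plus strand: caagtttggTGCATGtctgttctt
LDHA chr11:18407334-18407357, plus strand: tggaggttgTGCATGttgtccttt
PFKFB3 chr10:6234405-6234428, plus strand: tttaaagaaTGCATGtttttttcc
PFKFB3 chr10:6234657-6234680, plus strand: gtgcacgggTGCATGattgtgctt
HK1 chr10:69401350-69401373, plus strand: ctgccacttTGCATGgtttgattt
PFKP chr10:3136583-3136606, plus strand: agtcccgccTGCATGtgcctgcag
SLC16A3 chr17:82239617-82239640, plus strand: ggcaggcgcTGCATGgagggggct

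GAPDH (ENSG00000111640, chr12:6534512-6538374 of GRCh38, plus strand) fell by a modest amount that exceeded the spread between libraries. This fall was the reason the genes were examined, so its values here describe it and are no independent test of it. Its normalized counts, scaled by TMM to the mean library, were 39124, 36152 and 35975 in GFP replicates 1 to 3 and 29775, 32507 and 31642 in RBFOX1 replicates 1 to 3. All RBFOX1 libraries lay below all GFP libraries, and GFP replicate 1 was the highest of the 6. The log2 fold change was -0.24 with a standard error (SE) of 0.050 (adjusted p = 4.47e-04, edgeR's quasi-likelihood test), a change of -15.6%, and without GFP replicate 1 it was -0.20 (adjusted p = 1.81e-04). GAPDH took 0.255 to 0.277% of gene counts in GFP and 0.221 to 0.236% in RBFOX1 libraries. Per kb of exon, the level of GAPDH was 15477 normalized counts in the GFP group and 13067 in the RBFOX1 group, which ranked it 7th and 9th among protein-coding genes. GAPDH has 65 annotated processed copies, whose counts came to 0.176 to 0.225% of its own.

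A fall past the threshold was shared by 5 other glycolytic enzymes, HK1, PFKM, PFKP and ALDOA, which act before GAPDH, and PGK1, which acts after it. Of the 15 glycolytic enzymes, 6 fell, 1 rose (HK2) and 8 did not pass, and 12 of 15 estimates were negative with a median log2 fold change of -0.10. GAPDH, whose fall prompted the question, is counted among the 6 and in every figure here on the 15 enzymes. The share called in either direction, 46.7%, was at the level of all genes tested (46.6%), while 40% were lower and 6.67% higher, beside 22.9% and 23.7% of all genes. In single RBFOX1 libraries the median difference from the GFP mean was -0.14, -0.097 and -0.091 on the log2 scale. Together the 15 enzymes took 0.970 to 1.01% of gene counts in GFP and 0.897 to 0.923% in RBFOX1 libraries, without overlap.

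ALDOA (ENSG00000149925, chr16:30064164-30070457), the main aldolase of most tissues, had normalized counts of 13893, 13719 and 14171 in GFP and 11587, 11750 and 12012 in RBFOX1 libraries. The groups did not overlap, and the log2 fold change of -0.24 (SE 0.045, adjusted p = 1.76e-04 by edgeR) stood beside -0.24 for GAPDH. In GENCODE release 44, 42.8% of the exon bases of ALDOA are shared with another gene on the same strand. That release is later than the annotation used for counting. Whether the other gene was in the earlier annotation was not tested, so an effect on these counts is not known. HK1 (ENSG00000156515, chr10:69269984-69401884), the housekeeping hexokinase, had 4597, 4600 and 4856 normalized counts in GFP and 4003, 3896 and 3998 in RBFOX1 libraries. It too lay lower in every RBFOX1 library, with a log2 fold change of -0.24 (SE 0.047, adjusted p = 2.36e-04 by edgeR). PGK1, which makes the first ATP of the pathway, had a log2 fold change of -0.21 (adjusted p = 0.00112), and PFKM, the muscle-type phosphofructokinase, one of -0.21 (adjusted p = 0.00214).

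PFKP (ENSG00000067057, chr10:3066333-3137718), the platelet-type phosphofructokinase, fell the most of the enzymes. Its normalized counts were 3992, 3752 and 3864 in GFP and 2703, 2641 and 2634 in RBFOX1 libraries. The RBFOX1 values lay close together and well below the GFP values, with a log2 fold change of -0.54 (SE 0.047, adjusted p = 8.08e-09 by edgeR). The liver-type PFKL did not pass the threshold (log2 fold change -0.0025, adjusted p = 0.975).

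HK2 (ENSG00000159399, chr2:74834127-74893359), the inducible hexokinase of tumours, was the one enzyme that rose. Its raw counts were 77, 49 and 45 in GFP and 71, 136 and 142 in RBFOX1 libraries, or 46.7, 57.2 and 47.4 against 129, 151 and 130 normalized counts. Every RBFOX1 library was above every GFP library once depth was taken into account. The log2 fold change was 1.46 (SE 0.14, adjusted p = 2.90e-08 by edgeR), or 2.75-fold. Even so, HK2 remained far below HK1, at 23.1 against 577 normalized counts per kb of exon in RBFOX1 cells.

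The enzymes that did not pass were GPI, PFKL, ALDOC, TPI1, PGAM1, ENO1, ENO2 and PKM, with log2 fold changes from -0.11 for PKM to 0.24 for ALDOC. PKM, pyruvate kinase, had normalized counts of 45581, 45987 and 46890 in GFP and 42221, 43161 and 43329 in RBFOX1 libraries. The groups did not overlap, but the adjusted p was 0.0593 by edgeR, and without GFP replicate 1 it was 0.0198. GPI, the isomerase of the second step, likewise had all RBFOX1 libraries below all GFP libraries, with an adjusted p of 0.0823, and 0.0219 without GFP replicate 1. ALDOC rested on 5 to 23 raw counts per library. TPI1 and PGAM1 have processed copies that held 2.63 to 3.29% and 1.17 to 2.18% of their own counts.

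Measured against GAPDH within each library, which needs no scaling, HK1, PFKM, ALDOA, PGK1 and ALDOC overlapped between the groups. GAPDH was picked for its fall, and each ratio carries that fall. A gene that did not move therefore has a higher ratio, so the ratios restate the changes above relative to GAPDH. The log2 ratios of HK1, ALDOA and PGK1 to GAPDH differed between groups by 0.0042, 0.0029 and 0.033. The ratios of HK2, GPI, PFKL, TPI1, PGAM1, ENO1, ENO2 and PKM to GAPDH were higher in all RBFOX1 libraries, by 0.14 for PKM and 0.24 for PFKL. The ratio of PFKP was lower in all, by -0.30. Of single genes tested, 53.4% did not overlap between the groups. Ratios of genes outside the enzymes to GAPDH were not computed, so the share expected for them is not known. GAPDH took 26.0 to 27.5% of the counts of the 15 enzymes in GFP and 24.6 to 25.7% in RBFOX1 libraries.

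**Figure D2:**
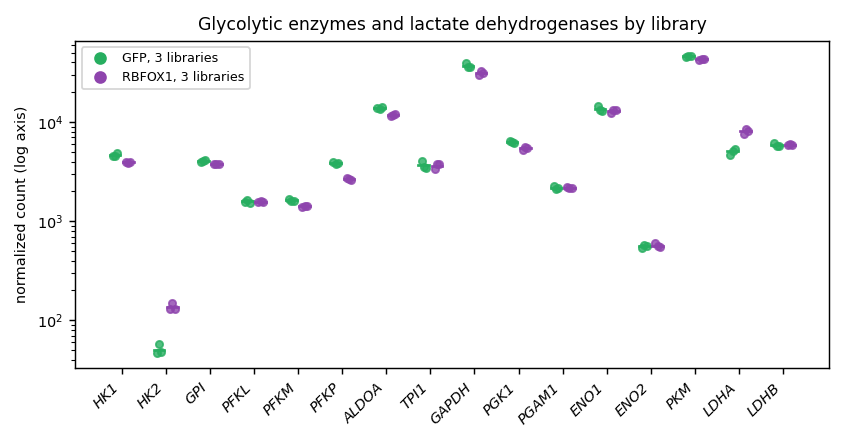
Normalized counts (log axis) of 14 glycolytic enzymes and the 2 lactate dehydrogenases in each of 3 GFP and 3 RBFOX1 libraries; short lines are group means. HK2 and LDHA stand higher in RBFOX1 libraries, PFKP visibly lower, and GAPDH, ALDOA, HK1 and PGK1 slightly lower without overlap.

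The PFKFB genes encode the enzymes that set fructose 2,6-bisphosphate, the activator of phosphofructokinase. PFKFB3 (ENSG00000170525, chr10:6144934-6254644), the form with the strongest kinase activity, had normalized counts of 387, 378 and 408 in GFP and 508, 530 and 486 in RBFOX1 libraries. All RBFOX1 libraries were higher, with a log2 fold change of 0.38 (SE 0.071, adjusted p = 1.90e-04 by edgeR). PFKFB2 and PFKFB4 had log2 fold changes of 0.18 and 0.20, with overlapping groups and adjusted p of 0.0641 and 0.0947. Without GFP replicate 1, both passed, at 0.0209 and 0.0139.

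Of the glucose transporters, SLC2A3 (GLUT3, ENSG00000059804, chr12:7919230-8019007), the high-affinity form, fell. Its normalized counts were 952, 980 and 961 in GFP and 522, 633 and 573 in RBFOX1 libraries. The groups were far apart, with a log2 fold change of -0.73 (SE 0.068, adjusted p = 1.92e-08 by edgeR). SLC2A1 (GLUT1), the widely expressed form, had overlapping groups and a log2 fold change of 0.056 (adjusted p = 0.454). The transporters were nearly level in GFP cells, at 133 normalized counts per kb of exon for SLC2A3 and 145 for SLC2A1, and stood at 79.4 and 151 in RBFOX1 cells. Per kb of coding sequence SLC2A3 was the higher in GFP cells, at 634 against 584.

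Lactate dehydrogenase A (LDHA, ENSG00000134333, chr11:18394560-18408425), which favours making lactate, rose. Its normalized counts were 4695, 5138 and 5334 in GFP and 7531, 8602 and 8201 in RBFOX1 libraries. All RBFOX1 libraries lay well above, with a log2 fold change of 0.68 (SE 0.057, adjusted p = 4.60e-09 by edgeR), or 1.61-fold. LDHA has 6 processed copies, whose counts were 1.18 to 1.48% of its own. LDHB, which favours using lactate, had a log2 fold change of 0.011 (adjusted p = 0.878). Per kb of exon LDHB stood at 1984 and LDHA at 1346 in RBFOX1 cells, but per kb of coding sequence the order was reversed, at 5784 and 6589, so the order of these 2 genes depends on the length used. In GENCODE release 44, 33.4% of the exon bases of LDHB are shared with another gene on the same strand. Whether that gene was in the annotation used for counting was not tested.

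The lactate exporter SLC16A3 (MCT4, ENSG00000141526, chr17:82217934-82261129) had 975, 972 and 930 normalized counts in GFP and 745, 776 and 878 in RBFOX1 libraries. It was lower in each RBFOX1 library, with a log2 fold change of -0.25 (SE 0.065, adjusted p = 0.00312 by edgeR). SLC16A1 (MCT1), which carries lactate in both directions, had a log2 fold change of 0.044 (adjusted p = 0.490).

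Both HIF alpha subunits rose, by small amounts. HIF1A (ENSG00000100644, chr14:61695513-61748259) had normalized counts of 4496, 4584 and 4675 in GFP and 5097, 4867 and 4980 in RBFOX1 libraries. The groups were separate but close, and the log2 fold change of 0.12 (SE 0.046, adjusted p = 0.0391 by edgeR) lost its call when any of GFP replicate 2, GFP replicate 3, RBFOX1 replicate 1 or RBFOX1 replicate 3 was left out, with adjusted p of 0.101, 0.0539, 0.0705 and 0.0899. EPAS1 (HIF-2 alpha, ENSG00000116016, chr2:46293667-46386697) had 444, 524 and 477 normalized counts in GFP and 660, 607 and 629 in RBFOX1 libraries. Every RBFOX1 library was higher, with a log2 fold change of 0.40 (SE 0.073, adjusted p = 1.40e-04 by edgeR). Per kb of exon, HIF1A was at 967 and EPAS1 at 86.7 normalized counts in RBFOX1 cells.

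EGLN3, a prolyl hydroxylase that marks HIF for destruction and is itself a HIF target, had 27, 17 and 14 raw counts in GFP and 15, 28 and 46 in RBFOX1 libraries. These were 16.4, 19.9 and 14.7 against 27.2, 31.1 and 42.0 normalized counts, so all RBFOX1 libraries were higher but at a low level. The log2 fold change was 1.04 (SE 0.25, adjusted p = 0.00170 by edgeR). EGLN1, the main oxygen-sensing hydroxylase, had overlapping groups and a log2 fold change of 0.046 (adjusted p = 0.523), and 55.8% of its exon bases are shared with another gene on the same strand.

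Hypoxia target genes that passed the threshold went in both directions. Of the 9 tested, 1 rose (ADM), 5 fell (55.6%, beside 22.9% of all genes tested) and 3 did not pass, with a median log2 fold change of -0.15. ADM (ENSG00000148926, chr11:10305073-10307397), which encodes the vasodilator peptide adrenomedullin, had normalized counts of 61.9, 59.6 and 65.3 in GFP and 328, 306 and 298 in RBFOX1 libraries. The lowest RBFOX1 library was several times the highest GFP library, with a log2 fold change of 2.31 (SE 0.11, adjusted p = 4.28e-13 by edgeR), or 4.95-fold.

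NDRG1, a stress-response gene induced by low oxygen, had 749, 792 and 723 normalized counts in GFP and 307, 364 and 363 in RBFOX1 libraries. It fell in all, with a log2 fold change of -1.11 (SE 0.076, adjusted p = 1.77e-10 by edgeR). P4HA2 (ENSG00000072682, chr5:132190147-132295315), a subunit of the collagen prolyl hydroxylase, had 1859, 1829 and 1737 normalized counts in GFP and 992, 1027 and 990 in RBFOX1 libraries. The fall was uniform over the libraries, with a log2 fold change of -0.85 (SE 0.054, adjusted p = 5.99e-11 by edgeR). The related gene P4HA1 fell as well, with a log2 fold change of -0.53 (adjusted p = 8.64e-08 by edgeR).

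BNIP3 (ENSG00000176171, chr10:131967684-131981967), a receptor for the removal of mitochondria, had 924, 883 and 876 normalized counts in GFP and 510, 584 and 590 in RBFOX1 libraries. The groups were far apart, with a log2 fold change of -0.66 (SE 0.067, adjusted p = 6.44e-08 by edgeR). BNIP3L, its relative, had a log2 fold change of -0.15 (adjusted p = 0.0287), and lost its call without GFP replicate 2, RBFOX1 replicate 1 or RBFOX1 replicate 3, with adjusted p of 0.0560, 0.172 and 0.0518. CA12, a membrane carbonic anhydrase, ANKRD37 and the histone demethylase KDM3A had overlapping groups and log2 fold changes of 0.030, 0.35 and 0.0045. ANKRD37 was low, at 11.6 to 34.5 normalized counts per library.

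**Figure D3:**
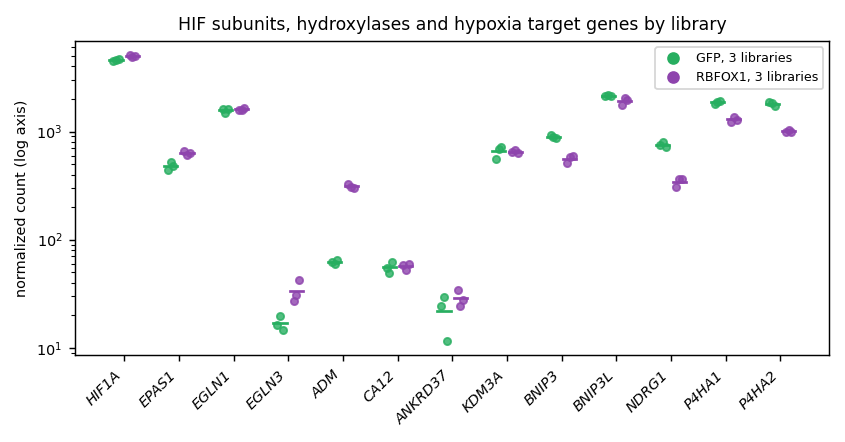
Normalized counts (log axis) of HIF subunits, prolyl hydroxylases and hypoxia target genes in each of 3 GFP and 3 RBFOX1 libraries; short lines are group means. ADM stands apart upward, NDRG1, P4HA2, BNIP3 and P4HA1 stand apart downward, and the small rise of HIF1A leaves the groups close to each other.

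Ratios of related members within a library, which do not depend on scaling, were compared for 13 pairs. In 10 pairs the groups did not overlap, beside 53.4% of single genes tested. Ratios of other genes were not computed, so the share expected for ratios is not known. Each of the 10 pairs had p = 0.1 by a two-sided exact permutation test, the smallest that 3 against 3 libraries allow. After Benjamini-Hochberg adjustment over the 13 pairs it was 0.13, so no pair could pass 0.05. HK2 over HK1 shifted the most, from 0.0102, 0.0124 and 0.0098 in GFP to 0.0322, 0.0388 and 0.0324 in RBFOX1 libraries, a log2 difference of 1.68. EGLN3 over EGLN1 was higher by 0.91 and BNIP3L over BNIP3 by 0.52.

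SLC2A3 over SLC2A1 was 0.987, 1.03 and 0.993 in GFP and 0.503, 0.629 and 0.598 in RBFOX1 libraries, a log2 difference of -0.81. LDHB over LDHA went from 1.30, 1.13 and 1.07 to 0.778, 0.694 and 0.722, so this ratio of counts, not corrected for length, was above 1 in every GFP library and below 1 in every RBFOX1 library. PFKP over PFKL went from 2.53, 2.31 and 2.50 to 1.74, 1.65 and 1.67. The remaining pairs without overlap differed by less, from -0.32 for P4HA2 over P4HA1 to 0.28 for EPAS1 over HIF1A, with PFKM over PFKL at -0.20 and SLC16A3 over SLC16A1 at -0.31. ALDOC over ALDOA, ENO2 over ENO1 and PFKFB4 over PFKFB3 overlapped.

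**Figure D4:**
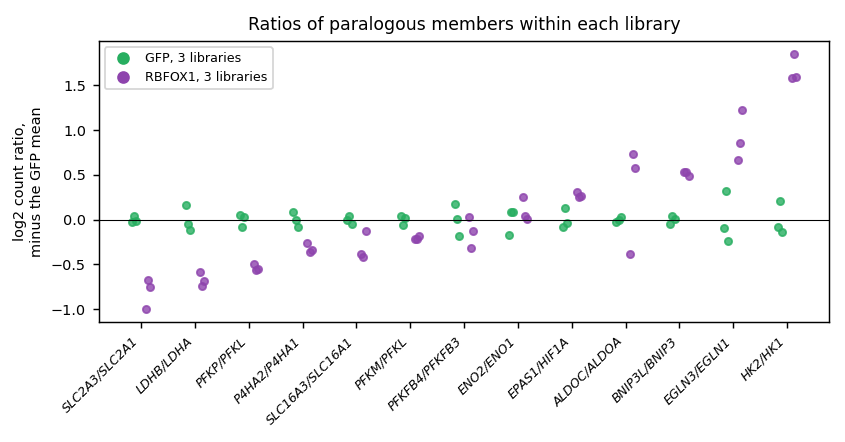
Log2 ratio of the counts of 2 related members within each library, minus the mean of the 3 GFP libraries (y axis), for 13 pairs (x axis) ordered by the mean difference. The RBFOX1 points of 10 pairs lie wholly above or below the GFP points, with SLC2A3/SLC2A1 lowest and HK2/HK1 highest. Of single genes tested, 53.4% did not overlap between the groups, and ratios of other genes were not computed.

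Other genes of the same pathways were counted from 2 lists. Of 37 other glycolysis genes, 25 were tested, 6 rose (24%), 9 fell (36%) and 10 did not pass, beside 23.7% and 22.9% of all genes tested, with a median log2 fold change of -0.028. Of the called genes that averaged 50 or more normalized counts, the 3 with the largest rises were SLC2A12 (1.07, adjusted p = 2.19e-05), a glucose transporter, PC (0.63, adjusted p = 2.81e-04), pyruvate carboxylase, and HKDC1 (0.17, adjusted p = 0.0119), a hexokinase relative. The 3 with the largest falls were TIGAR (-0.75, adjusted p = 1.50e-06), a fructose bisphosphatase that lowers glycolytic flux, SLC2A6 (-0.74, adjusted p = 1.81e-07), a sugar transporter, and ADPGK (-0.62, adjusted p = 1.24e-06), the ADP-dependent glucokinase. These values are log2 fold changes from the edgeR fit, and each gene's groups did not overlap.

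Of 47 other hypoxia genes, 43 were tested, 11 rose (25.6%), 19 fell (44.2%) and 13 did not pass, beside the same 23.7% and 22.9%, with a median log2 fold change of -0.15. TMEM45A (2.12, adjusted p = 5.64e-13), CITED2 (1.23, adjusted p = 3.40e-12) and PPFIA4 (1.17, adjusted p = 1.41e-05) had the largest rises in log2 fold change by edgeR under the same rule. CITED2 is a HIF-induced protein that competes with HIF for its coactivators. GBE1 (-1.12, adjusted p = 3.19e-12), the glycogen branching enzyme, and HMOX1 (-0.85, adjusted p = 3.43e-07), heme oxygenase 1, were among the genes with the largest falls.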

How the data were processed

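Stranded, paired-end libraries were made from rRNA-depleted RNA of A172 cells, 3 with RBFOX1 and 3 with GFP. The authors used HISAT2 to align reads to GRCh38 and HTSeq-count (intersection-strict) to count them on Ensembl genes, and deposited raw counts per gene, 1 file per library. The authors' own DESeq2 table (mean over all libraries, log2 fold change, standard error, Wald statistic, p-value and adjusted p-value) was not used. The lines that name no gene stayed out of library sizes: of all read pairs, 16.8 to 27.0% had low mapping quality and 6.61 to 8.74% lay on no gene. Pairs that fitted several genes, called ambiguous, were 8.89 to 9.35% in GFP and 6.89 to 7.94% in RBFOX1 libraries, without overlap. The part of this difference in genes that share exon bases was not tested.

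Counts were scaled by TMM. Groups were compared in R 4.3.3 with edgeR 4.0.16 (quasi-likelihood, two-sided), keeping genes whose counts summed to 10 or more and adjusting p-values over all of them by Benjamini-Hochberg. A normalized count is a count divided by the effective library size and multiplied by the mean of those sizes. A floor of 3 counts was worth 1.82 to 5.44 normalized counts, for counting error only. On counts simulated for this comparison over 20107 genes, the fit recovered 60 of 66 genes changed by 0.5 on the log2 scale. It recovered 67 of 67 changed by 1 and 67 of 67 changed by 1.5, with 6 false calls. The changed genes were a small part of those simulated, whereas 46.6% of all genes tested passed in the data. Recovery was split by size of change only. Recovery in genes with few counts, or with a library as far apart as GFP replicate 1, was not tested separately. These figures therefore describe the simulated counts and are not error rates for the data. Levels per kb used GENCODE release 44 exon unions (98.1% of identifiers matched), a later annotation than that of the counts, and promoters came from RefSeq.

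The members, the lists and the rule for named genes (all members by role; from each other list the 3 called genes that rose most and the 3 that fell most, given a mean of 50 or more normalized counts) were chosen with earlier results of these data known, and the 3' UTR search was added later. DESeq2 1.42.0, limma-voom 3.58.1, other scalings, filters and thresholds, a replicate block and the omission of each library were alternatives. Protein sequences were not used here, and 1 gene that the rule names is not reported here.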

Additional observations from a re-analysis of the deposited data

How the results depend on the processing

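Of 518 values of single members under alternatives, 493 kept their side of the threshold, 13 newly passed it and 12 no longer did. No called member changed sign, but some that were not called did, such as PFKL, which ranged from -0.026 to 0.049. The fall of GAPDH was called under every alternative, with a log2 fold change from -0.27 to -0.19 and an adjusted p from 2.62e-06 to 0.00417. The call of HIF1A was lost under 7 alternatives and that of BNIP3L under 5. PKM passed with upper-quartile scaling, DESeq2, limma-voom and without GFP replicate 1. The counts of members called stayed between 6 and 9 higher and between 12 and 15 lower, except where a log2 fold change of 0.5 or more in size was also required, which left 4 higher and 6 lower by construction.

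The median log2 fold change of the members, -0.0025, was -0.026 with upper-quartile scaling, 0.049 with library totals alone and 0.013 with edgeR's filterByExpr, and from -0.034 to 0.015 with a library left out. Library totals alone moved the median of all genes to 0.055. Over all genes, DESeq2 called 3960 higher and 3709 lower, beside 4869 and 4711. With each library left out, members higher ranged from 6 to 9 and members lower from 12 to 15, and no pair ratio changed direction. Over all 19534 to 20164 genes tested in these fits, 4288 to 4777 were higher and 4038 to 4530 lower.

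With the replicate number as a replicate block, 7 members were higher and 13 lower, beside 4588 and 4458 of all 20536 genes tested. In that edgeR fit HIF1A lost its call (adjusted p = 0.0740) and PFKFB4 gained one (adjusted p = 0.0380). Deviations of same-numbered GFP and RBFOX1 libraries correlated by -0.16, 0.038 and -0.052, and not every library correlated best with its own number. Such weak values over 3 libraries per group can neither show nor exclude a pairing. The main fit used the numbers as names only. Depth limits the lowest members, CA9, EGLN3, ALDOC and ANKRD37, which have few counts.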
